A study of Mus musculus with 62 samples.

Results

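Mlxipl, Mlxip and Mlx encode ChREBP, its paralog MondoA and the partner protein Mlx that both need to bind DNA. The 3 genes were found by their symbols in all 4 expression tables of a study of ChREBP in mouse skeletal muscle, among 35258 symbols listed in any of them. The study asked what the loss or the gain of ChREBP does in muscle at rest, under stress and during myogenic differentiation, and sequenced RNA of 62 libraries in 14 groups. Described here are the levels of the 3 members in every group, the balance between ChREBP and MondoA, and how the members vary over libraries. Levels are in FPKM, a fragment count corrected for gene length and for the size of the library, so levels of different genes can be set side by side within a library. The 4 tables were normalised separately, so levels are not compared across them.

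ChREBP and MondoA are glucose-responsive transcription factors with a basic helix-loop-helix leucine zipper domain. Each pairs with Mlx and binds E-box motifs in carbohydrate response elements of genes of glycolysis, lipogenesis and sugar handling. MondoA is known as the form that prevails in skeletal muscle and ChREBP as the form of liver and fat, and Txnip and Arrdc4 are classical targets of the Mlx complexes. Mlx also pairs with repressors of the Max network, such as Mnt, Mxd1 and Mxd4, which places the members beside Max and Myc.

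GC (gastrocnemius) and SOL (soleus) muscles came from male mice of 8 to 10 weeks on chow. F/F mice are homozygous for a ChREBP gene floxed at exon 8 and carry no Cre, and ChMKO mice are littermates with Mck-cre added (5 mice per genotype, both muscles). Mck-cre is active in muscle fibres and in heart and not in the other cells of a muscle. In GC of the same genotypes, Norm stands for normoxia, Hypo for 2 weeks of hypoxia at a simulated altitude of 5500 m and HFrD for 3 months on a diet with 68% fructose (4 mice per group). GC of wild-type C57BL6/J mice received AAV9 with full-length mouse ChREBP under a CMV promoter (AAV-ChREBP) or a control virus (AAV-CON) and was taken 14 days later (5 libraries per group). C2C12 mouse myoblast lines transduced with a ChREBP virus (OE) or a control virus (CON) were selected with puromycin and taken on day 7 of differentiation (4 libraries per group). The study names the C2C12 vector a retrovirus in one place and a lentivirus in another. The study's methods call the sequenced replicates independent. Each C2C12 group is 1 selected line, so p-values there measure the spread between samples of the same lines. A SOL library of the F/F group is numbered 59 in its title and 69 in its description, and was taken as mouse 69.

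Mlxipl and Mlxip lie on chromosome 5 and Mlx on chromosome 11, and all 3 are on the plus strand. In GRCm38, the build of the chow table, Mlxipl covers chr5:135089891-135138382, Mlxip chr5:123394798-123457932 and Mlx chr11:101086711-101092207. GENCODE vM21 lists 10 transcripts of Mlxipl, 4 of Mlxip and 7 of Mlx. Mlxipl-201 is the 3622-base transcript of ChREBP-alpha, and its exon 8 (chr5:135128513-135128697) is the deleted exon. This exon is coding over all of its 185 bases, which make 5.11% of the transcript and leave 2 bases over after whole codons. A transcript that lacks exon 8 still gives reads in the other 16 exons, so the gene-level FPKM counts it. The exon is shown because it is the part that Mck-cre removes in muscle fibres, with the parts matched by the reverse primer of ChREBP-alpha and by the forward primer of total ChREBP in capitals. Of the 6 primers of the study's ChREBP qPCR, 4 follow: both of the total assay, the alpha primer in exon 8 and the beta primer in another first exon. The reverse primer of the total assay lies in exon 9.
Mlxipl exon 8: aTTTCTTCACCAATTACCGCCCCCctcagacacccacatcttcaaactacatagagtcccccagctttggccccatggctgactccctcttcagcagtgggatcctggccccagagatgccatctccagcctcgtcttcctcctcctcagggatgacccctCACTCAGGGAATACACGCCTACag
ChREBP(total) forward: cactcagggaatacacgcctac
ChREBP(total) reverse: atcttggtcttagggtcttcagg
Chrebp-alpha reverse: gggggcggtaattggtgaagaaa
Chrebp-beta forward: tctgcagatcgcgtggag

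ChREBP-beta starts at another first exon, 17028 bases upstream of the start of Mlxipl-201. The forward primer of ChREBP-beta matches the first exon of Mlxipl-210 (chr5:135089890-135090060) and not Mlxipl-201. The Mlxipl entry of the chow table starts within a base of that exon, so alpha and beta are counted in 1 value. RefSeq promoters of GRCm38.p6 were searched for the E-box CACGTG, which reads the same on both strands, and 7.15% of 32851 promoters of this length hold it. It was in the upstream promoter of Mlxipl at position -98 from the start and in the promoter of Mlx at -40, and not in this window of Mlxip or of the second Mlxipl start. The tandem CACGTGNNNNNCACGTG was in 0 of the promoters. Both promoters with the motif are shown, with the E-box in capitals, since they belong to the regulated gene and to its partner.
Mlxipl upstream promoter, chr5:135089640-135089939, plus strand: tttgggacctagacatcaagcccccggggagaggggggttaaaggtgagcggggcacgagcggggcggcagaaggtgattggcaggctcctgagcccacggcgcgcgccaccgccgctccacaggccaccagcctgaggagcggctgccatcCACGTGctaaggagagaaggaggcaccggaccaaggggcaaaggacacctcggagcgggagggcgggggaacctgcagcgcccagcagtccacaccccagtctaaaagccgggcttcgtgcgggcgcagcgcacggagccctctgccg
Mlx promoter, chr11:101087040-101087339, plus strand: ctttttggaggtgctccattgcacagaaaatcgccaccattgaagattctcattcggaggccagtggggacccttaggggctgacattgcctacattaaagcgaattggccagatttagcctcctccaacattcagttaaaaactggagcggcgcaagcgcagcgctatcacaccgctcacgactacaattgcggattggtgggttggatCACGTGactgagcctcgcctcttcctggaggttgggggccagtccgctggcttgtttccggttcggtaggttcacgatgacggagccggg

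The 24 Norm, Hypo and HFrD libraries fall into 2 sets of 12 on the first principal component, which holds 62.9% of the variance, and only the Norm and Hypo F/F groups are divided between them. One set is made of all 8 HFrD libraries with Norm F/F libraries N_WTc397 and N_WTc401 and Hypo F/F libraries H_WTc360 and H_WTc361, and mitochondrial transcripts take 34.3% to 39.6% of its summed FPKM. The other set holds all Norm and Hypo ChMKO libraries with Norm F/F libraries N_WTc368 and N_WTc369 and Hypo F/F libraries H_WTc341 and H_WTc348, at 14.1% to 29% mitochondrial. HFrD and Norm in ChMKO mice therefore differ in diet and in set at once, and the 2 cannot be told apart. The study does not state the ages of Norm and HFrD mice at collection, so age may differ too, in both genotypes. Depth was 14473169 to 23460511 reads in these libraries and spread 0.951 to 1.15 times the median library on chow and 0.944 to 1.221 times in the AAV experiment, and is unknown for C2C12. In the chow experiment, GC of F/F mouse 69 had a summed Schwann cell marker level of 331.9 FPKM against a group median of 21.7. Muscle was what the labels say: the sum of Acta1, Ckm and Mb was 16235 to 43074 FPKM over all muscle libraries. In these bulk libraries fewer cells of a type and less RNA per cell cannot be told apart.

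Of the 3 members, Mlx was the lowest per length in every muscle group apart from Norm and Hypo ChMKO, where Mlxipl was lower. Its group means were 3.10 to 3.82 FPKM on chow, 3.50 to 5.34 in the Norm, Hypo and HFrD experiment and 4.15 to 4.78 in the AAV experiment. Group means of Mlxip were 10.98 to 16.1, 13.7 to 15.3 and 14.002 to 18.6 FPKM in the same order. Those of Mlxipl were 15.7 to 53.4, 2.82 to 9.26 and 11.3 to 83.5 FPKM. In C2C12 cells the order was another one, with Mlx at 19.6 ± 1.11 FPKM (SD, n = 4), Mlxip at 8.43 ± 0.299 and Mlxipl listed at 0 in 3 of 4 CON libraries and at 0.02 in the other. The recovered read numbers of the Norm, Hypo and HFrD libraries were 224 to 1187 for Mlxipl, 1570 to 2874 for Mlxip and 110 to 234 for Mlx, so Mlx rests on the fewest reads.

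**Figure D1:**
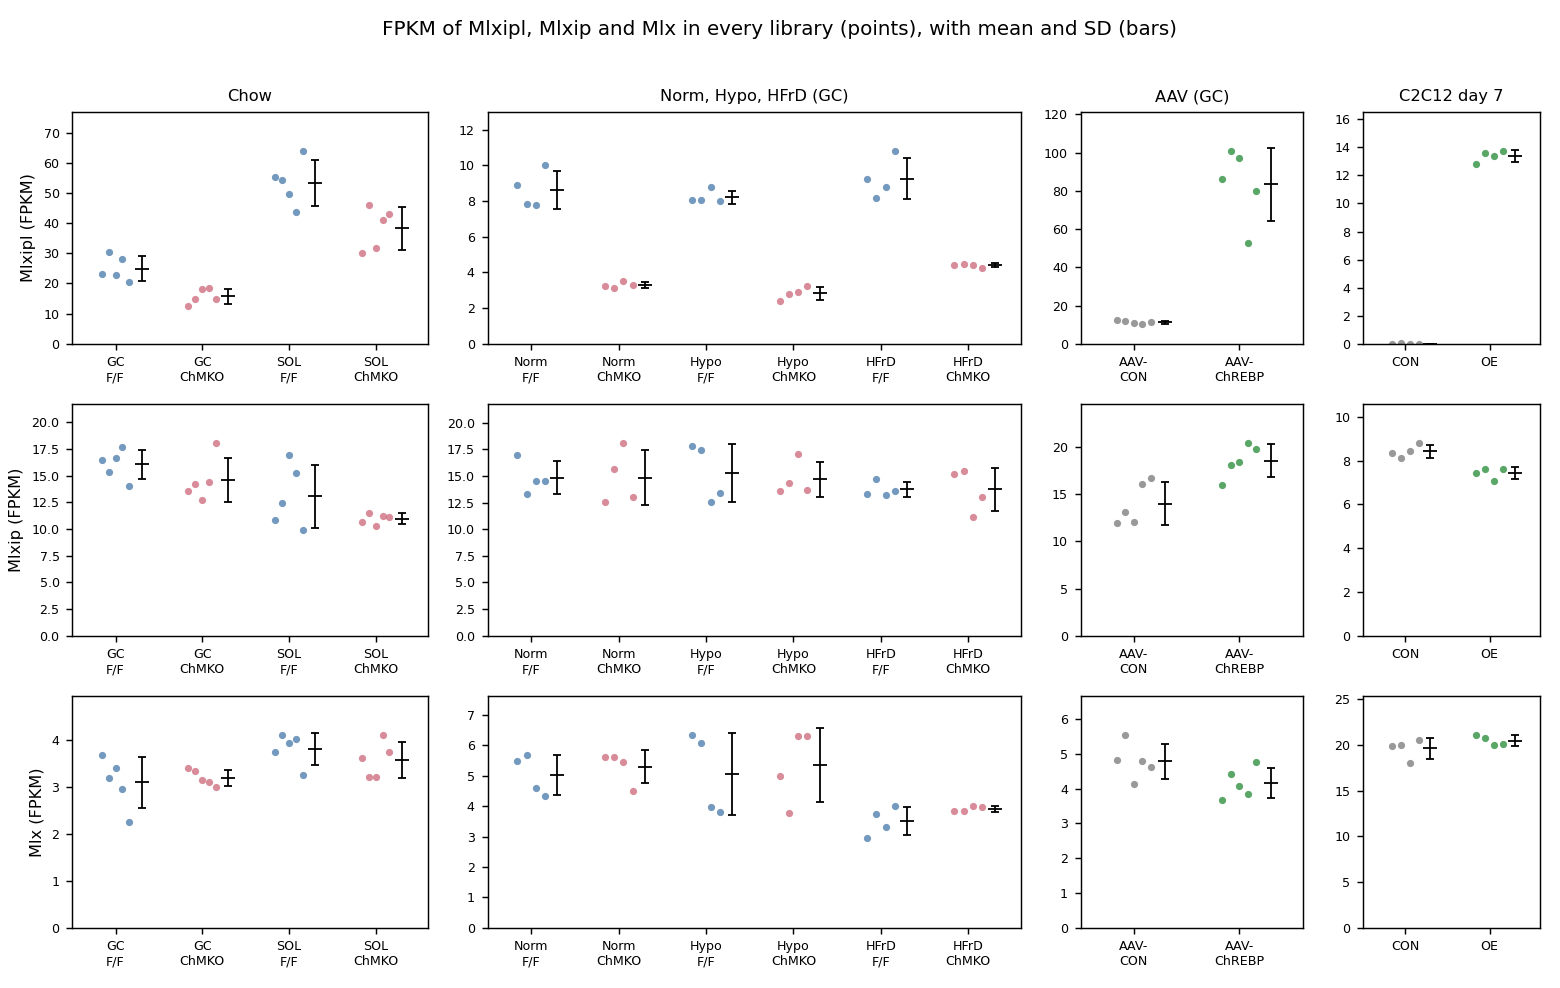
Each panel plots the FPKM of 1 member (rows, linear axes from 0) in every library of 1 experiment (columns), with points for libraries and bars for the group mean and SD. Within each experiment the Mlxipl mean sits lower in ChMKO than in F/F muscle and higher with AAV-ChREBP or OE than in their controls, while Mlxip means run from 10.98 to 16.1 FPKM on chow and from 13.7 to 15.3 FPKM in the Norm, Hypo and HFrD libraries.

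On chow, ChREBP RNA was lower in ChMKO than in F/F muscle, by 36.8% in GC and 28.1% in SOL on group means, and neither difference passed adjustment over all genes. In GC, Mlxipl was at 23.2, 30.3, 22.7, 28.0 and 20.4 FPKM in F/F mice 57, 58, 69, 70 and 71, and at 12.5, 14.8, 18.1, 18.5 and 14.8 FPKM in ChMKO mice 59, 60, 61, 72 and 74. The groups did not overlap, which held with lower ChMKO values for 0.314% of 12724 genes tested. The difference was -0.63 on the log2(FPKM + 1) scale (SE 0.128, 95% interval -0.91 to -0.35). Its limma p was 0.000422, the 13th smallest of all genes, and its adjusted p 0.413, while 0.0236% of genes passed. The exact permutation test over libraries gave p = 0.00794, two-sided, the smallest that 5 against 5 allow. Beside it the 4 slow-fibre markers tested (median -0.65), all 4 of Schwann cells (-0.83) and all 5 of red blood cells (-0.10) had lower ChMKO values. All 4 macrophage (0.34), all 4 fibroblast (0.21) and 5 of 6 adipocyte markers (0.34) had higher ones. Limma called 0 of them. At an unadjusted p under 0.05 were 1 macrophage marker, higher, and 1 adipocyte marker, lower, and 4.63% of all genes. Summed adipocyte levels were 134 to 211 FPKM in ChMKO and 142 to 238 in F/F GC. The part of these cells and fibres was not tested.

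In SOL, Mlxipl was at 55.2, 54.3, 49.5, 43.8 and 64.1 FPKM in the F/F mice and at 30.0, 46.15, 31.7, 41.0 and 43.0 FPKM in the ChMKO mice, in the same order of mice. The groups overlapped by the SOL of ChMKO mouse 60, which was above that of F/F mouse 70. The difference was -0.47 (SE 0.136, 95% interval -0.77 to -0.18, limma adjusted p = 0.384, exact permutation p = 0.0159). Beside it all 7 adipocyte markers had lower ChMKO values (median -0.43, summed levels of 285 to 540 against 374.1 to 627 FPKM), as did all 4 of endothelium (median -0.25, 76.5 to 98.3 against 95.5 to 153 FPKM). Limma called 0 of them, and 1 and 2 were at an unadjusted p under 0.05, as were 9.74% of all genes. The 4 Schwann cell (median -0.41) and 5 slow-fibre markers (median -0.23) were lower too, with 0 at that p. Their part was not tested. Here 0.0225% of 13348 genes passed, and Mlxipl was not among them. Differences of the paralog and the partner were within the spread: Mlxip differed by -0.13 in GC and -0.21 in SOL and Mlx by 0.04 and -0.07, with limma adjusted p of 0.581 or more. The intervals of these differences were -0.34 to 0.07 and -0.48 to 0.07 for Mlxip, and -0.16 to 0.25 and -0.25 to 0.10 for Mlx. The genotype difference of Mlxipl was 0.15 smaller in size in SOL than in GC (95% interval -0.24 to 0.55), with a limma adjusted p of 0.902 for the interaction.

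The larger contrast on chow was between muscles. ChREBP RNA was 2.14 times as high in SOL as in GC of F/F mice and 2.44 times in ChMKO mice, on the values above, and the muscles of each genotype did not overlap, which held with higher SOL values for 26.3% of genes in F/F and 30.2% in ChMKO mice. On the log2(FPKM + 1) scale the difference was 1.07 in F/F (SE 0.126, limma adjusted p = 6.16e-05) and 1.23 in ChMKO (SE 0.137, adjusted p = 1.66e-05). SOL was higher in 5 of 5 mice of each genotype, and exact sign flips within mice gave p = 0.0625, the smallest that 5 mice allow. Much of the transcriptome differed between these muscles: 37.9% of 13235 genes passed with higher SOL values in F/F and 41% of 13080 in ChMKO. The median over all genes was itself 0.18 and 0.15 higher in SOL and 0.02 in both after rescaling libraries by the median of ratios, which left Mlxipl at 0.86 and 1.06.

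MondoA RNA went the other way. Mlxip in ChMKO mice was at 13.6, 14.2, 12.7, 14.4 and 18.1 FPKM in GC and at 10.7, 11.5, 10.3, 11.2 and 11.2 FPKM in SOL, without overlap and lower in SOL in 5 of 5 mice. The difference of -0.37 passed (SE 0.0822, limma adjusted p = 0.00235), as did lower SOL values of 16.9% of genes, while 12.8% did not overlap in this direction. It was -0.54 after rescaling. In F/F mice the Mlxip values were 16.5, 15.3, 16.7, 17.7 and 14.1 FPKM in GC and 10.8, 12.4, 16.9, 15.2 and 9.92 FPKM in SOL. These overlapped, the SOL of mouse 69 being the only one above its own GC. The difference of -0.30 (SE 0.134) did not pass, at a limma adjusted p of 0.0836, while 12.5% of genes passed with lower SOL values. It passed with the mouse as a block (adjusted p = 0.0414), after rescaling (-0.50, adjusted p = 0.00636) and without SOL of mouse 69 (-0.39, adjusted p = 0.0232).

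Mlx was at 3.10 ± 0.545 FPKM in GC and 3.82 ± 0.342 in SOL of F/F mice (SD, n = 5), and SOL was higher in 5 of 5 mice. The difference of 0.24 missed the threshold (limma adjusted p = 0.0727) and passed without GC of mouse 57 (0.29, adjusted p = 0.0456) or SOL of mouse 71 (0.28, adjusted p = 0.0397). After rescaling it was 0.08 in F/F, and in ChMKO it turned from 0.12 to -0.01. Fibre type markers differed between the muscles as their names say, since the 5 slow-fibre markers summed to 6269 to 10219 FPKM in SOL and 3.73 to 153 in GC of F/F mice. Markers of some other cells were also higher in SOL of F/F mice. The 7 adipocyte markers summed to 374.1 to 627 FPKM in SOL and 142 to 238 in GC, and 3 of 7 passed with higher SOL values, as 4 of 7 did in ChMKO mice. All 4 endothelial and all 5 red blood cell markers passed in both genotypes, at 95.5 to 153 against 29.3 to 65.2 FPKM and 165 to 354 against 61.9 to 123 FPKM in F/F mice. No marker of macrophages, fibroblasts or Schwann cells passed in F/F mice. The part of these cells in the Mlxipl difference was not tested.

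In the Norm, Hypo and HFrD experiment the ChREBP difference between genotypes was larger and passed in all 3 conditions. In Norm, Mlxipl was at 8.88, 7.86, 7.76 and 10.01 FPKM in F/F libraries N_WTc368, N_WTc369, N_WTc397 and N_WTc401 and at 3.26, 3.15, 3.51 and 3.28 FPKM in ChMKO libraries N_KO_370, N_KO_374, N_KO_375 and N_KO_380. In Hypo, it was at 8.05, 8.05, 8.76 and 7.98 FPKM in F/F mice and at 2.38, 2.78, 2.89 and 3.24 FPKM in ChMKO mice. In HFrD, it was at 9.25, 8.19, 8.77 and 10.8 FPKM in F/F mice and at 4.43, 4.49, 4.42 and 4.25 FPKM in ChMKO mice. Every ChMKO library was below every F/F library of its condition, and the SDs of the ChMKO groups were 0.102 to 0.352 FPKM. As a share of the mean, these SDs were 4.61%, 12.5% and 2.31% in Norm, Hypo and HFrD. In F/F mice they were 12.2%, 4.50% and 12.2%. Lower ChMKO values without overlap were found for 2.69%, 0.339% and 2.95% of genes in Norm, Hypo and HFrD. Beside this, all 5 red blood cell markers had higher ChMKO values, with medians of 0.59, 0.62 and 0.31. All 4 endothelial markers were higher in Norm (0.35) and Hypo (0.34). In Hypo the 6 adipocyte markers tested (0.47) and all 4 of macrophages (0.64) were higher. In Norm 6 of 7 adipocyte markers were lower (-0.34). All 4 Schwann cell markers were lower in Norm (-0.28) and HFrD (-0.15). Limma called 0 of these markers, and their part was not tested.

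The group mean was lower by 61.8% in Norm, 65.6% in Hypo and 52.5% in HFrD ChMKO muscle. The differences were -1.16 in Norm (SE 0.0919, limma adjusted p = 0.00655), -1.27 in Hypo (SE 0.103, adjusted p = 0.00297) and -0.92 in HFrD (SE 0.0732, adjusted p = 0.00306). In each of the 3 comparisons Mlxipl was the gene with the smallest p of all and the only gene lower in ChMKO that passed, which is 0.00922%, 0.00941% and 0.00951% of the genes tested. The exact permutation p was 0.0286 each time, the smallest that 4 against 4 allow. The Norm result lost its call without ChMKO library N_KO_370 (adjusted p = 0.0652), N_KO_374 (0.0693), N_KO_375 (0.0503) or N_KO_380 (0.0642) or without F/F library N_WTc368 (0.0555), with the difference between -1.18 and -1.14. Within the set of libraries without HFrD, 4 ChMKO against 2 F/F libraries gave -1.12 in Norm (adjusted p = 0.027) and -1.25 in Hypo (adjusted p = 0.0485).

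No difference of MondoA or Mlx RNA between genotypes passed in this experiment. Mlxip was at 14.8 ± 1.52 FPKM in Norm F/F and 14.8 ± 2.59 in Norm ChMKO muscle, and the differences were -0.01 in Norm, -0.05 in Hypo and -0.01 in HFrD. The widest of their intervals was -0.36 to 0.27, in Hypo. Mlx differed by 0.07, 0.07 and 0.13 with limma adjusted p of 0.743 or more and intervals of -0.17 to 0.30, -0.36 to 0.50 and -0.03 to 0.30. The exact permutation p of the 6 differences was 0.143 or more. Within the set of libraries without HFrD, 4 ChMKO against 2 F/F libraries gave -0.03 in Norm and -0.25 in Hypo for Mlxip and -0.07 and -0.21 for Mlx, with limma adjusted p of 0.999 or more, so the sign of Mlx turned.

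Under hypoxia no difference of a member passed. Mlxipl differed between Hypo and Norm by -0.06 in F/F mice (95% interval -0.29 to 0.18) and by -0.17 in ChMKO mice (-0.37 to 0.03, limma adjusted p = 0.405). Mlxip differed by 0.03 and -0.01 and Mlx by -0.01 and -0.01. The sign differed between the library sets in F/F mice, at 2 against 2 libraries each: Mlxip was at 0.22 in the set without HFrD and -0.15 in the set with it, and Mlx at 0.14 and -0.16, with limma adjusted p of 0.321 or more. In F/F mice limma called 0 of 10738 genes and voom on recovered reads 0, with 3.84% of genes at an unadjusted p under 0.05, and in ChMKO mice 0.89% of 10674 genes passed, or 95 genes, which became 10 to 129 without 1 library. The Hypo and HFrD comparisons share the Norm libraries.

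On the fructose diet Mlx values were lower in both genotypes, and the difference passed over all genes in ChMKO mice, where diet and library set cannot be told apart. The difference between these effects was 0.07 (95% interval -0.21 to 0.34, limma adjusted p = 0.821). In F/F mice Mlx was at 5.47, 5.67, 4.59 and 4.35 FPKM in Norm F/F and 2.94, 3.73, 3.33 and 3.99 FPKM in HFrD F/F muscle, with no overlap and a mean lower by 30.3%. This difference of -0.42 (SE 0.108, p = 0.00376) had a limma adjusted p of 0.147 and an exact permutation p of 0.0286. In F/F mice the groups did not overlap, with lower HFrD values, for 13.3% of 10705 genes, and limma called 0 genes and voom 0, with 23.6% at an unadjusted p under 0.05. In ChMKO mice Mlx was at 5.61, 5.61, 5.47 and 4.49 FPKM in Norm and 3.83, 3.83, 4.02 and 3.97 FPKM in HFrD muscle. The difference of -0.35 passed (SE 0.0686, adjusted p = 0.00166), and 44.6% of 10731 genes passed in this direction. After rescaling the difference was -0.18 in ChMKO (adjusted p = 0.0421) and -0.31 in F/F mice (adjusted p = 0.175).

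Markers of several other cells were lower in the same HFrD ChMKO libraries. All 4 endothelial, all 4 macrophage and all 5 red blood cell markers passed with lower HFrD values, as did 3 of 4 of fibroblasts and 2 of 3 of muscle. The endothelial sum was 77.1 to 89.2 FPKM in Norm and 41.3 to 51.0 in HFrD ChMKO muscle, and that of red blood cells was 217 to 407 and 62.3 to 191 FPKM. The sum of Acta1, Ckm and Mb was 24789 to 29967 and 16235 to 17902 FPKM. The 4 slow-fibre markers tested had higher HFrD values in these mice (median 1.86), at sums of 52.4 to 226 FPKM against 6.31 to 125 in Norm, and 1 of them, Myh7, was called (2.36, limma adjusted p = 0.0239). The lists differed in the same directions in F/F mice with 0 called: all 5 red blood cell (median -0.90), 4 macrophage (-0.73), 4 fibroblast (-1.09) and 4 endothelial markers (-0.38) had lower HFrD values, and the 4 slow-fibre markers higher ones (1.84). At an unadjusted p under 0.05 these were 4, 3, 4, 0 and 4 markers, and 2 of 3 of muscle were lower. The part of these cells and fibres in the Mlx and Mlxipl differences was not tested.

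Mlxipl was higher in HFrD than in Norm ChMKO muscle, by 33.4% on the means (0.33, SE 0.0497, limma adjusted p = 0.000386), and 19.4% of genes passed in this direction. Diet and library set cannot be told apart here. In F/F mice Mlxipl differed by 0.09 (95% interval -0.15 to 0.34, adjusted p = 0.569). The difference between these effects was 0.24 (SE 0.117, 95% interval -0.01 to 0.49), with an interaction p of 0.0602 and an adjusted p of 0.451 by limma, which called 0 of 10732 genes, with 1106 at an unadjusted p under 0.05. The interaction carries the library set as well, since Norm ChMKO libraries lie in a single set and Norm F/F libraries in both. Without Norm F/F library N_WTc369, of the set without HFrD, the interaction was called for 1094 genes, and Mlxipl was at 0.28 (adjusted p = 0.123). Mlxip differed by -0.10 in both genotypes, and its sign turned to 0.02 and 0.09 when libraries were rescaled, which moved the median of all genes from -0.10 and -0.17 to -0.00 and -0.02.

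The set that a library belongs to moved with Mlx beyond the diet. Among Norm and Hypo F/F libraries, Mlx was at 5.47, 5.67, 6.36 and 6.09 FPKM in the set without HFrD and at 4.59, 4.35, 3.98 and 3.82 FPKM in the set with HFrD. The levels of Mlx in the 2 sets did not overlap within these 8 libraries, as held with lower values in the set with HFrD for 27.2% of 10738 genes. Within the set that holds HFrD, 4 HFrD against 2 Norm F/F libraries gave -0.29 for Mlx (limma adjusted p = 0.183) and 0.06 for Mlxipl. Mlxipl did not follow the set in this way, at 7.76 to 10.01 FPKM in one and 7.86 to 8.88 in the other among the same 8 libraries.

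**Figure D2:**
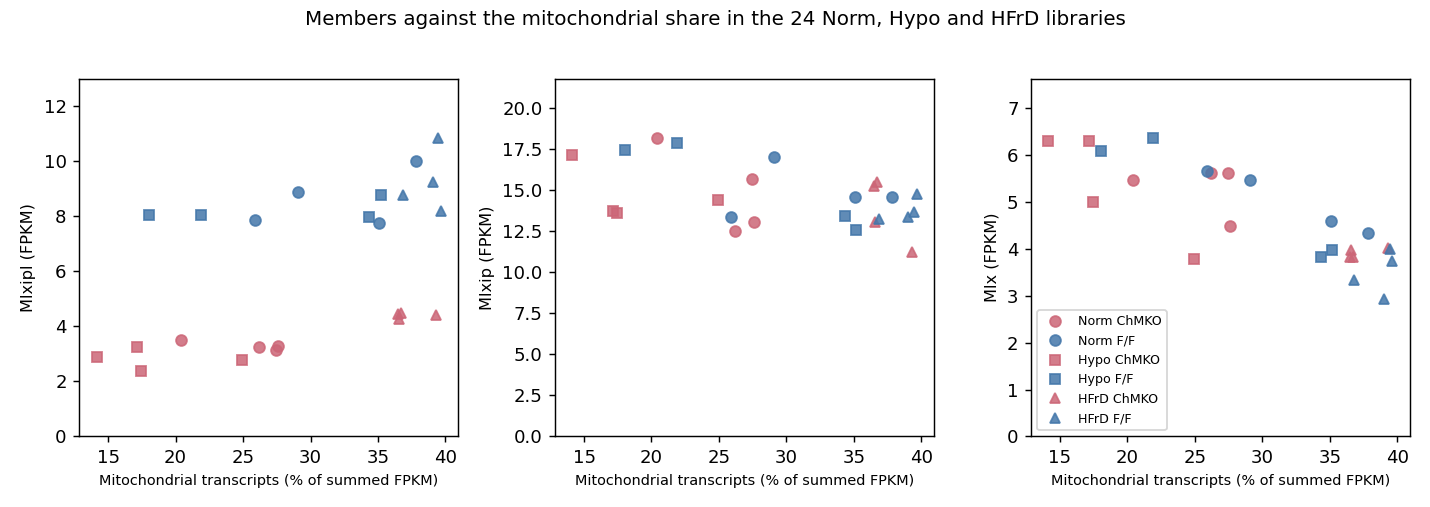
Mlxipl, Mlxip and Mlx (FPKM, linear axes from 0) are plotted against the share of mitochondrial transcripts in the summed FPKM of each of the 24 Norm, Hypo and HFrD libraries, with colours for genotype and symbols for condition. Mlx is lower in the 12 libraries at 34.3% or more than in most others, while Mlxipl separates by genotype at every mitochondrial share.

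Delivered by AAV, ChREBP RNA reached 7.37 times the control mean. Mlxipl was at 12.3, 11.8, 10.9, 10.35 and 11.3 FPKM in AAV-CON libraries 1, 3, 4, 7 and 8 and at 86.0, 101, 97.3, 52.9 and 79.9 FPKM in the AAV-ChREBP libraries of the same numbers. All values were far apart, with the lowest treated library, number 7, still well above the highest control, and 0.488% of genes were higher without overlap. The difference was 2.74 (SE 0.143, limma adjusted p = 2.46e-06, exact permutation p = 0.00794, higher in 5 of 5 pairs of equal number). The labels do not say what libraries of equal number share. Mlxipl was the only gene of 11058 that passed, or 0.00904%. Reads of the delivered sequence and of the mouse's own gene cannot be told apart in this value.

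MondoA RNA was 32.7% higher beside it, without passing over all genes. Mlxip was at 12.0, 13.1, 12.1, 16.1 and 16.7 FPKM in AAV-CON and at 16.02, 18.1, 18.4, 20.5 and 19.8 FPKM in AAV-ChREBP libraries. The treated library was the higher one in 5 of 5 pairs of equal number, while the groups overlapped between 16.02 and 16.7 FPKM. The difference of 0.39 (SE 0.0999, 95% interval 0.17 to 0.61) had the 7th smallest limma p of all genes (0.00201), an adjusted p of 1 and an exact permutation p of 0.0238. Exact sign flips within the 5 pairs gave p = 0.0625, the smallest that 5 pairs allow. With the library number as a block its adjusted p was 0.121. Mlx was at 4.78 ± 0.512 FPKM in AAV-CON and 4.15 ± 0.434 in AAV-ChREBP muscle (SD, n = 5) and lower in 4 of 5 pairs (-0.17, adjusted p = 1).

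In C2C12 cells the viral construct took Mlxipl from a level listed at 0 to that of a well expressed gene. The OE libraries were at 12.8, 13.6, 13.4 and 13.8 FPKM, against 0, 0.02, 0 and 0 FPKM in CON, and no fold is given against 0. The difference on the log2(FPKM + 1) scale was 3.84 (SE 0.0486, limma adjusted p = 8.04e-13). MondoA RNA was lower by 11.7%, at 8.35, 8.10, 8.44 and 8.82 FPKM in CON and 7.42, 7.63, 7.08 and 7.63 FPKM in OE libraries. The groups did not overlap, and the difference of -0.16 passed (SE 0.0422, adjusted p = 0.0148, exact permutation p = 0.0286), as it did in this direction for 14.1% of 11971 genes, and 14.7% were lower without overlap. Mlx was at 19.6 ± 1.11 FPKM in CON and 20.5 ± 0.561 in OE libraries (0.06, 95% interval -0.03 to 0.15, adjusted p = 0.311). The muscle markers Acta1, Ckm and Mb summed to 289 to 318 FPKM in CON and 373.8 to 405 in OE libraries. The 4 slow-fibre markers tested and 3 of 5 of fast fibres passed with higher OE values, where 16.3% of all genes did. The fast myosins Myh1 (-0.50) and Myh4 (-0.32) and 3 of 4 fibroblast markers passed with lower ones. The part of these genes in the Mlxip difference was not tested.

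**Figure D3:**
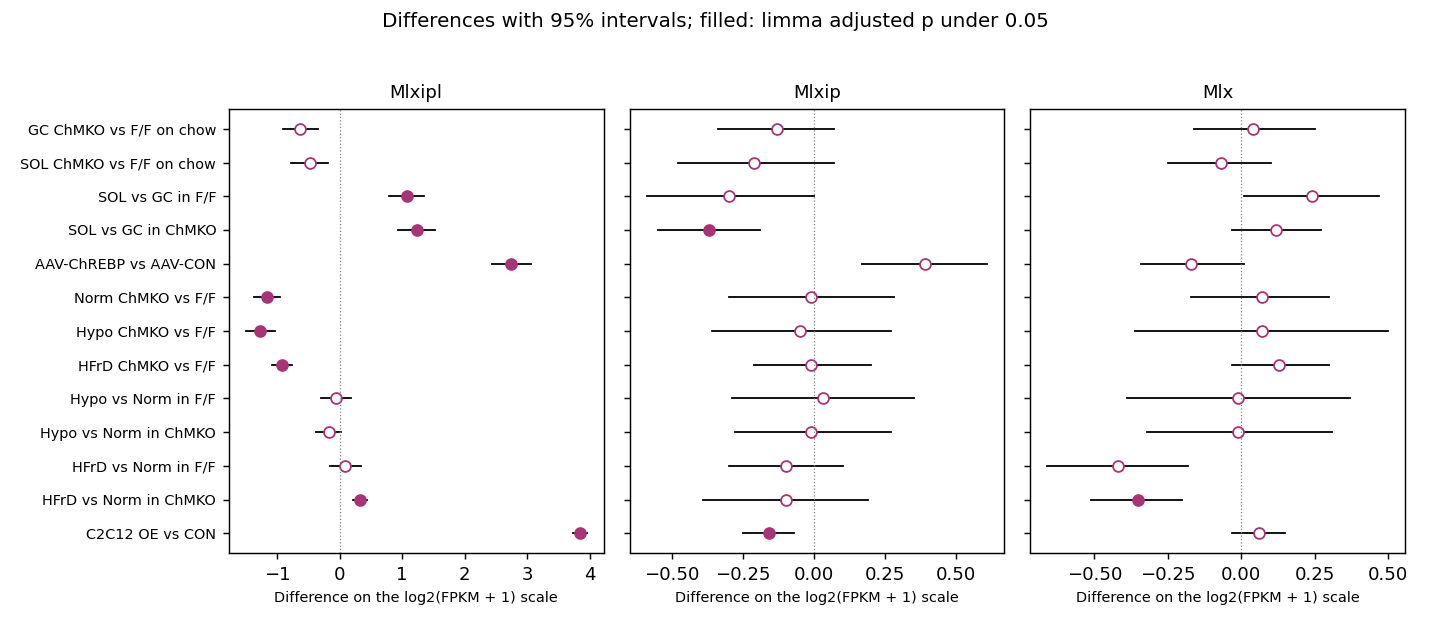
Points are differences on the log2(FPKM + 1) scale for each member (panels, with axes of their own) in 13 comparisons (rows), lines are 95% intervals, and filled points passed a limma adjusted p of 0.05. Mlxipl passed in 8 comparisons, Mlxip in 2 (SOL against GC in ChMKO mice and C2C12) and Mlx in 1 (HFrD against Norm in ChMKO mice).

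The ratio of ChREBP to MondoA RNA shows the balance of the 2 paralogs within each library, and is given as a description. On chow the FPKM of Mlxipl was 1.55 ± 0.249 times that of Mlxip in GC of F/F mice and 1.097 ± 0.252 times in GC of ChMKO mice, with overlap. In SOL it was 4.34 ± 1.52 times in F/F and 3.48 ± 0.511 times in ChMKO mice, and no SOL library reached down to a GC library of its genotype. In the Norm, Hypo and HFrD experiment the ratio was below 1 in every library, at 0.584 ± 0.0754, 0.552 ± 0.118 and 0.677 ± 0.0980 in F/F mice. In ChMKO mice it was 0.227 ± 0.0342, 0.194 ± 0.0304 and 0.326 ± 0.0491 in the same order of conditions, without overlap with F/F.

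After AAV-ChREBP the ratio was 2.59 to 5.57, against 0.642 to 1.03 in AAV-CON. The lowest treated library was number 7, which had the lowest Mlxipl and the highest Mlxip of its group. In C2C12 OE libraries the ratio was 1.80 ± 0.0696, and against Mlx the same ChREBP level came to 0.654 ± 0.0344. Mlxipl exceeded Mlx by 20.2 ± 4.58 times in AAV-ChREBP muscle, 14.2 ± 3.36 times in SOL of F/F mice and 8.19 ± 1.57 times in GC of F/F mice on chow. In GC of Norm and Hypo ChMKO mice it was below Mlx, at 0.628 ± 0.0762 and 0.546 ± 0.128.

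**Figure D4:**
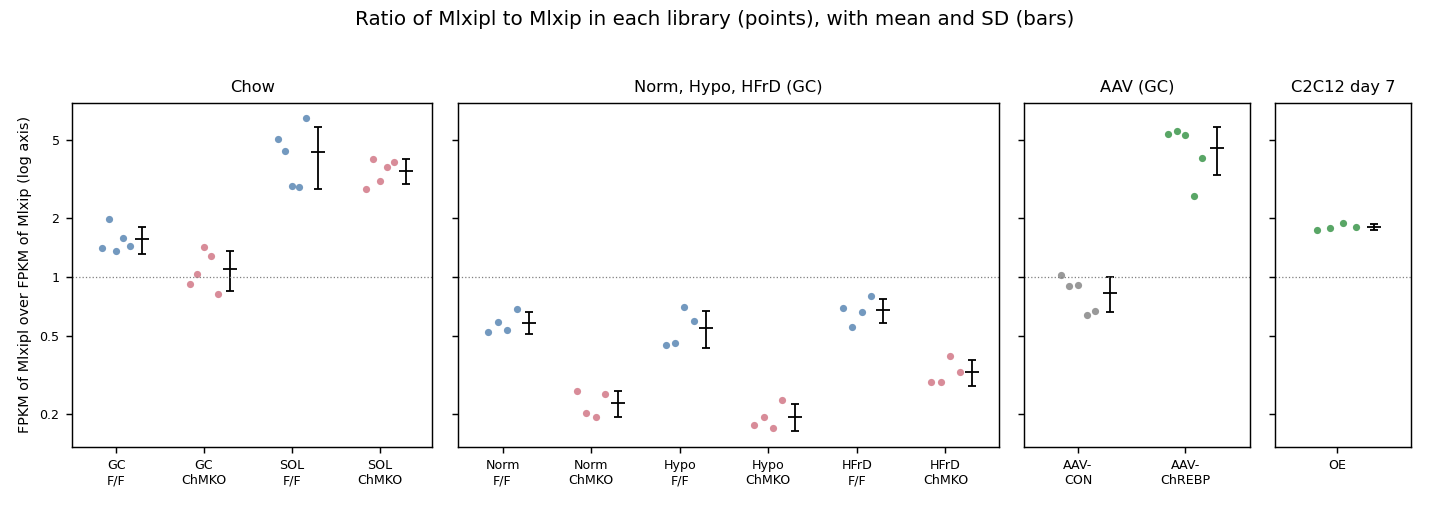
The FPKM of Mlxipl divided by that of Mlxip is plotted on a log axis for every library, with the group mean and SD beside the points and a dotted line at equal levels, and C2C12 CON is left out because Mlxipl is listed at 0. GC ratios lie below the line in all Norm, Hypo and HFrD libraries and above it in all F/F chow libraries, from tables that were normalised separately.

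With group means removed, 15 correlations between members were computed on the log2(FPKM + 1) scale, 3 pairs in each of 5 sets of libraries. None passed an adjusted p of 0.05, which at 8 to 24 libraries does not show that the members vary independently. In SOL on chow, Mlxip and Mlx had Pearson's r = 0.50 (permutation p = 0.126) and Spearman's rho = 0.50 (permutation p = 0.169) over 10 libraries, with an adjusted p of 0.684. In the AAV libraries, Mlxipl and Mlxip had r = -0.41 (permutation p = 0.137) and rho = -0.48 (permutation p = 0.129), also with an adjusted p of 0.684. Without the 2 libraries farthest from the median level of the first gene named these became 0.63 and -0.50, with permutation p of 0.144 and 0.178. The 2 were picked before group means were removed. Where groups differ they can come from the highest or lowest group, so this does not check for outliers. In the AAV libraries they were AAV-ChREBP libraries 3 and 4, while number 7 was kept. In GC on chow, Mlxipl and Mlxip had r = 0.05 and rho = 0.08 (permutation p of 0.898 and 0.841), and the r of 0.21 of Mlxip with Mlx became 0.76 without the 2 farthest libraries (permutation p = 0.0556). In C2C12 cells leaving out such libraries turned the r of Mlxip from 0.05 to -0.73 with Mlxipl (permutation p = 0.25) and from 0.23 to -0.73 with Mlx (permutation p = 0.167). For the pair with Mlxipl these were OE libraries 4 and 2, and Mlxipl was at or near 0 in all CON libraries. Over the 24 Norm, Hypo and HFrD libraries, Mlxip and Mlx had r = 0.46 and rho = 0.49 (permutation p of 0.077 and 0.0599), with an adjusted p of 0.684. As these libraries form 2 sets, r was also taken within each set of 12. There it ran from -0.09 to 0.38 over 6 relations with permutation adjusted p of 0.884, and rho from -0.06 to 0.57. Without the 2 farthest libraries these r ran from -0.39 to 0.41.

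The genes most like each member were taken from the same 24 libraries, among the 4498 genes whose mean reached 5 FPKM, by Pearson's r with group means removed. The points share libraries, depth and the split into sets, so these r are a description. For Mlxipl they were Exd2 (0.73), Ago2 (0.64), Tafazzin (0.60), Adgrl4 (0.60) and Rchy1 (0.60), and with the sets removed too Exd2 was at 0.74. For Mlxip they were Timp4 (0.82), an inhibitor of metalloproteinases, Sesn1 (0.77), Tnpo2 (0.76), Foxo3 (0.75), a transcription factor of muscle atrophy, and Tgfbr3 (0.74). For Mlx they were Drg1 (0.90), Tmem50a (0.89), Yipf3 (0.89), Ndufa7 (0.88), a complex I subunit, and Ppp5c (0.88), which fell to between 0.74 and 0.81 with the sets removed. In the 10 GC libraries on chow the 5 genes of Mlx had r between -0.20 and 0.22, and those of the other members that came to over 0.5 were Adgrl4 (0.62) with Mlxipl and Sesn1 (0.55) with Mlxip.

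Around the members, 3 lists were counted: 10 genes of the Max network, 24 targets of the Mlx complexes, and 26 regulators such as the 14-3-3 proteins (Ywhab to Ywhaz) that hold ChREBP in the cytoplasm. Between genotypes limma called 0 genes of any list in any of the 5 comparisons, and voom called 0 in the 3 where reads were recovered. At an unadjusted p under 0.05 it gave 1 of 18 targets in GC on chow, 2 of 19 in SOL, 2 of 19 in Norm, 4 of 17 in Hypo and 2 of 17 in HFrD, and at most 1 gene of the Max network and 3 regulators per comparison. Of all genes, 4.63%, 9.74%, 11.1%, 5.27% and 7.36% were under this p in the same order. The median difference of the targets was 0.08, -0.01, 0.14, 0.13 and 0.07 in that order, beside medians of 0.01, -0.02, 0.05, 0.08 and -0.01 over all genes. Of the targets under this p, 1 in SOL was lower in ChMKO muscle and the rest were higher. In the Hypo comparison the 6 adipocyte markers tested (median 0.47) and 4 of 4 macrophage markers (0.64) were higher too, with 2 of each under this p. Limma called 0 of them, and their part was not tested. Txnip, which encodes an inhibitor of glucose uptake, was at 135 ± 31.3 FPKM in ChMKO and 175 ± 36.7 in F/F GC on chow (-0.37, limma adjusted p = 1) and at 199 ± 33.5 and 183 ± 68.0 in Norm (0.18, adjusted p = 0.711). Arrdc4, its arrestin relative, differed by 0.01 in both muscles on chow, and by 0.41 in Norm (adjusted p = 0.438), -0.09 in Hypo and 0.06 in HFrD. Mga, a Max partner, was at 1.25 ± 0.206 FPKM in ChMKO and 3.28 ± 2.17 in F/F muscle in Norm (-0.77, limma adjusted p = 0.419). It followed the library set, at 4.76 to 5.35 FPKM in the Norm and Hypo F/F libraries of the set with HFrD and 1.05 to 1.76 in those of the other set, which holds all Norm and Hypo ChMKO libraries. Of all genes 16.3% were higher in the set with HFrD without overlap. Between genotypes it differed by -0.70 in Hypo (adjusted p = 0.532), -0.03 in HFrD, and -0.04 in GC and 0.18 in SOL on chow. Max, the partner of Myc, differed by 0.03 to 0.14 in the 5 comparisons.

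With AAV-ChREBP limma called 0 genes of the 3 lists, and at an unadjusted p under 0.05 gave 1 target, 2 regulators and 0 genes of the Max network, where 2.91% of all genes were under it. Of 18 targets tested, 16 had positive differences, with a median of 0.12 beside 0.02 over all genes. Txnip was at 109 ± 12.5 FPKM against 102 ± 16.2 (0.10, adjusted p = 1), and Arrdc4 at 2.395 ± 0.620 against 2.36 ± 0.579 (0.01). Max, Mnt and Mga differed by 0.08, 0.02 and 0.04. Markers of other cells also had mostly positive differences, with 0 called: 6 of 6 adipocyte markers (median 0.45), 4 of 4 of macrophages (0.22) and 4 of 4 of fibroblasts (0.15). Their part in the targets' differences was not tested.

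In C2C12 OE cells 5 of 18 targets rose and 5 fell, where 16.3% and 14.1% of all genes did. Fgf21, a hormone of fasting and fructose response, rose from 1.76 ± 0.301 to 4.15 ± 0.714 FPKM (0.90, limma adjusted p = 8.45e-05) and Rgs16, a regulator of G protein signalling, from 2.65 ± 0.198 to 5.19 ± 0.278 FPKM (0.76, adjusted p = 3.34e-06). Klf10 rose by 0.36, Txnip by 0.21 and the malic enzyme Me1 by 0.16. Arrdc4 fell from 2.02 ± 0.179 to 0.703 ± 0.0793 FPKM (-0.83, adjusted p = 6.18e-06), and Chka (-0.27), the lipogenic genes Fasn (-0.21) and Scd1 (-0.18) and the fructose pathway kinase Tkfc (-0.21) fell with it. In the Max network 6 of 9 genes fell, among them Max (-0.15), Mnt (-0.19), Mycl (-0.24) and Myc (-0.16), and Mxd3 rose (0.31). Among 25 regulators the nuclear import factor Kpna2 (0.39) and the export factor Xpo1 (0.19) rose, and Usf1 (-0.19), Sirt1 (-0.17) and Ywhag (-0.07) fell.

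Between muscles, 5 of 19 targets were higher and 4 lower in SOL than in GC of F/F mice, and 6 and 5 in ChMKO mice. Among all genes 37.9% were higher and 12.5% lower in F/F mice, and 41% and 16.9% in ChMKO mice. Rgs16 was higher (0.91 in F/F) and the glycerol phosphate dehydrogenase Gpd1 (-2.92) and Me1 (-1.53) were lower, while Txnip differed by 0.00 in F/F and rose by 0.51 in ChMKO mice (limma adjusted p = 0.0189). Max and Mnt were higher in SOL of both genotypes, by 0.58 and 0.55 in F/F and by 0.52 and 0.46 in ChMKO mice, with adjusted p of 0.0101 or less. Of 24 regulators 10 were higher and 5 lower in F/F mice, with Ywhaq (0.81) and Ywhaz (0.75) higher and Ywhae (-0.50) and the AMPK subunit Prkaa2 (-1.03) lower. These values are on the scale as deposited, on which the median over all genes was 0.18 higher in SOL of F/F mice.

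On the fructose diet, limma and voom called 0 genes of the 3 lists in F/F mice, with 0 of 17 targets higher and 4 lower at an unadjusted p under 0.05, where 23.6% of all genes were under it. In ChMKO mice, where diet and library set cannot be told apart, 8 of 17 targets fell and 0 rose, where 44.6% of all genes fell and 19.4% rose. The targets that fell included Txnip (-0.91, adjusted p = 0.00514), Arrdc4 (-0.68), Thrsp (-0.90) and the fructose kinase Khk (-0.53). Mga rose from 1.25 ± 0.206 to 5.50 ± 0.126 FPKM in these mice (1.54, adjusted p = 2.4e-07), and of 25 regulators 8 rose, led by Ogt (1.12), and 12 fell. Under hypoxia limma called 0 list genes in F/F mice, and voom 0. At an unadjusted p under 0.05 were 1 target and 1 regulator, and 3.84% of all genes. In ChMKO mice under hypoxia, Klf10 fell by 1.13 and Foxo1 rose by 1.28, both at a limma adjusted p of 0.0267. Of all genes 0.637% fell and 0.253% rose, and these 95 calls became 6 without the filter and 10 to 129 without 1 library. In the same mice all 4 slow-fibre markers tested (median 2.65), 5 red blood cell (0.90) and 4 Schwann cell markers (0.29) were higher. All 4 of fibroblasts were lower (-0.45). Limma called 0 of them, and 4, 4, 0 and 2 were at an unadjusted p under 0.05, as were 15.1% of all genes. Their part was not tested.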

How the data were processed

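RNA-seq gave 4 tables of FPKM, which the authors deposited as processed values. Per the submitters' notes the tools included fastp 0.18.0, HISAT2 2.1.0, StringTie 1.3.1, Bowtie2 2.2.8 and RSEM. For the AAV and C2C12 tables FPKM was inferred from the numbers, as their headers give no unit. The AAV table also holds the authors' fold changes and p-values, which were not used. Symbols of the AAV table were assigned by gene ID (20918 of 21039 matched), and of repeated symbols the entry with the highest mean was kept.

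Each comparison was fitted by itself with limma 3.58.1 in R 4.3.3 on log2(FPKM + 1) using a mean-variance trend and those genes whose mean reached 0.5 FPKM across the compared libraries. P-values are two-sided and were adjusted by Benjamini-Hochberg over all genes tested, with a threshold of 0.05. A difference on this scale understates the change of low genes. Exact permutations and 100000 draws for correlations of larger sets used SciPy 1.17.1. Interactions were contrasts over 4 groups, with the mouse as a block for muscle. GC and SOL carry the same mouse numbers in the labels and were paired by them, while their deviations from group means correlated at r of -0.0169 to 0.322 in F/F and 0.021 to 0.0492 in ChMKO mice. AAV libraries of the same number deviated together (r of 0.211 to 0.49), so the number was used as a block in an alternative. Ratios have no test.

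Whole reads were recovered from the FPKM and gene lengths of the Norm, Hypo and HFrD table for 99.789% to 99.893% of values within 0.01 read and tested with voom as an alternative. The precision of all other tests is set by the spread between libraries. Alternatives were pseudocounts, filters, scaling, pooled fits, blocks and leaving out libraries. Named were the members in every comparison, list genes that passed with Max, Mnt, Mga, Txnip and Arrdc4, and the 5 genes most like each member. The members and lists were chosen with earlier results of these data known.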

Additional observations from a re-analysis of the deposited data

Results flagged for a closer look

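Within groups of 4 or 5 libraries, 84 sets of member levels and ratios were searched for a library that lies far from the rest, and 5 were found, where chance gives about 1 in 20, or 4.2. Mlx was at 4.49 FPKM in Norm ChMKO library N_KO_380, while the other 3 libraries were at 5.47 to 5.61. Mlxipl was at 8.76 FPKM in Hypo F/F library H_WTc360, while the other 3 were at 7.98 to 8.05. Mlxipl was at 0.02 FPKM in C2C12 CON library 2 and listed at 0 in the other 3, which also sets apart its ratio to Mlxip (0.00247) and to Mlx (0.000998) in that library.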

How the results depend on the processing

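Of 370 values of members under alternatives other than leaving out a library, 365 kept their side of the threshold and 5 passed it newly, and of 746 values without 1 library 738 kept their side, 5 lost the call and 3 gained it. The sign turned in 15 and 56 of these values, 0 of which were called before or after, for differences of -0.10 to 0.12 and correlations of -0.23 to 0.23. The 5 newly passed were in SOL against GC of F/F mice: Mlxip after rescaling (-0.50, adjusted p = 0.00636), in a fit on all groups of the table (-0.30, adjusted p = 0.0319), with the replicate block (-0.30, adjusted p = 0.0414) and with the block without mouse 69 (-0.38, adjusted p = 0.0167), and Mlx in the fit on all groups (0.24, adjusted p = 0.0225). The replicate block, by mouse or by number, changed no other call. C2C12 numbers do not pair libraries (r of -0.0938 to 0.176). Without 1 library, Mlxipl in Norm ChMKO against F/F ran from -1.20 to -1.09 (adjusted p of 0.0121 to 0.0693), Mlxip in SOL against GC of F/F mice from -0.39 to -0.21 (0.0232 to 0.171) and Mlx there from 0.16 to 0.29 (0.0397 to 0.16). The filter at a mean of 5 FPKM gives no value where Mlx or Mlxipl is below it. Alternatives within 1 set of libraries were chosen after seeing the data.

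Counts of all genes called moved by over 1.5 times in some fits: from 3 to 5 in GC on chow with a pseudocount of 0.1 or no filter; from 3 to 0 with the 5 FPKM filter and to 9 on all groups in SOL; from 6673 to 3319 (F/F) and 7575 to 3942 (ChMKO) with the 5 FPKM filter between muscles; from 2 to 1 in HFrD genotypes without trend or on all groups; from 0 to 2 and 220 on all groups, and to 80 and 99 within 1 set, for Hypo and HFrD in F/F; and from 95 to 6, 149 and 214 without filter, rescaled and on all groups for Hypo in ChMKO. Without 1 library the Norm genotype count went from 1 to between 0 and 4, that of GC on chow from 3 to between 3 and 5, of SOL from 3 to between 3 and 6 and of HFrD from 2 to 1 in every case. It ran from 0 to 1 for Hypo and 0 to 8 for HFrD in F/F, and from 10 to 129 for Hypo in ChMKO. Voom called 1, 1 and 2 genes between genotypes, 104 for Hypo and 6909 for HFrD in ChMKO.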
